A study of Rattus norvegicus with 6 samples.

Results

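The genes of decorin (Dcn), biglycan (Bgn), lumican (Lum), fibromodulin (Fmod), osteoglycin (Ogn), asporin (Aspn), PRELP (Prelp), podocan (Podn) and osteomodulin (Omd) were followed in RNA-seq of neonatal rat cardiac fibroblasts (NRCFs), taken from rats within 3 days of birth. They are 9 small leucine-rich proteoglycan (SLRP) genes among 21857 gene symbols. All 9 were listed in the files, 7 had at least 1 count, and 6 passed the filter on low counts. There were 3 libraries of cells transfected with an empty plasmid (Vector, genotype label WT) and 3 of cells transfected with a pcDNA plasmid holding the rat FTO cDNA (genotype label FTO overexpression). FTO is a demethylase that acts on N6-methyladenosine (m6A), a modified base of RNA. The labels do not say whether the replicates came from separate cultures or litters, and p-values therefore measure the spread between these libraries only, which may be technical. The design text names Sprague-Dawley rats, whereas the strain label of each library reads "Noway". The members were picked by family name with earlier comparisons of the same libraries known, so their levels and fold changes are given as a description with their errors and without a p-value.

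SLRPs are secreted proteins of the extracellular matrix with a core of leucine-rich repeats, and many of them carry chondroitin, dermatan or keratan sulfate chains. They bind the surface of collagen fibrils and shape how fibrils grow and pack. Decorin and biglycan also bind transforming growth factor β (TGF-β) and cell surface receptors, and in the heart these genes are mainly expressed by fibroblasts, of which decorin and lumican are common markers.

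The 6 libraries held 13178952 to 17857999 counts each. Fto itself, the gene that the plasmid carries, was at 88.3 ± 1.20 CPM (counts scaled to a common library size) in Vector and 92.3 ± 1.32 CPM in the other group (SD, n = 3 libraries each), which is 0.06 on the log2 scale (SE 0.0468, edgeR quasi-likelihood test, Benjamini-Hochberg adjusted p = 0.239). No rise of the targeted transcript was thus detected, which goes against the label FTO overexpression, and this group is named by its label throughout, as libraries labelled FTO. The Fto values did not overlap (87.4 to 89.6 and 90.8 to 93.2 CPM), as in 70.3% of all genes tested. The paper reports checks of the FTO plasmid by qRT-PCR and FTO protein, and lower m6A on dot blots. Whether those checks used the sequenced cells is not stated. Of 10 fibroblast markers tested, 4 passed with higher and 5 with lower values where FTO was the label (adjusted threshold of 0.05). The summed level of these markers was 58888 to 59913 CPM in Vector and 33785 to 36567 CPM in the libraries labelled FTO. Col1a1, Col3a1 and Fn1 made up most of this sum, and its fall was mainly that of the collagen genes. Col1a1 fell from 25809 to 8268 CPM and Col3a1 from 10699 to 3338 CPM, while Fn1 did not pass (17129 and 16463.5 CPM). The markers with higher values were Pdgfra, Thy1, S100a4 and P4hb. Pdgfra, a receptor that marks cardiac fibroblasts, rose from 173 ± 5.02 to 976 ± 91.0 CPM, while Vim, which encodes the filament protein vimentin, fell from 3161 ± 104 to 1250 ± 72.8 CPM. Of 10 macrophage markers, 9 were lower and 1 higher, with summed levels of 611 to 634 CPM in Vector and 152 to 172 CPM in the libraries labelled FTO, where C1qb and C1qc had at most 2 counts per library. The macrophage marker with higher values was Adgre1, which rose from 6.81 ± 1.52 to 31.7 ± 3.64 CPM. Of 8 cardiomyocyte markers tested, 7 were higher and 1 lower, and their list summed to 1513 to 1546 CPM in Vector and 2281 to 2325 CPM in the libraries labelled FTO. Of 4 chondrocyte markers tested, 3 were lower and 1 higher, with summed levels of 270 to 279 CPM and 19.9 to 24.5 CPM, and Col9a1 and Matn1 had 0 counts in every library. Of 5 endothelial markers tested, 4 were higher (summed 24.5 to 25.0 and 53.4 to 55.9 CPM), of 6 mural markers 3 were higher and 3 lower (697 to 732 and 706 to 734 CPM), and of 6 epicardial markers 4 were higher and 1 lower (30.0 to 30.4 and 119.9 to 134.4 CPM). The mural sum hides large opposite changes, as Myh11 fell from 315 to 27.1 CPM and Des rose from 86.4 to 472 CPM. Most of the epicardial rise was Msln, from 2.83 to 87.1 CPM, while Upk3b fell from 4.61 to 2.58 CPM. The part of these cell type markers in the results on the SLRP genes was not tested.

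A promoter sequence, 250 bases before to 50 bases after the gene start, was found by symbol in RefSeq (build GRCr8) for 6 of the 9 genes, namely Lum, Fmod, Podn, Ogn, Omd and Aspn. The promoters of Lum, Fmod and Podn are shown because these genes had counts in every library and differed in the size of their fold change. Capitals mark matches to any of 8 motifs searched, which in these promoters were the CCAAT box (CCAAT), the GC box (GGGCGG) and the STAT motif (TTCNNNGAA), each on either strand and without overlap.
Lum, chr7:34245456-34245755, plus strand: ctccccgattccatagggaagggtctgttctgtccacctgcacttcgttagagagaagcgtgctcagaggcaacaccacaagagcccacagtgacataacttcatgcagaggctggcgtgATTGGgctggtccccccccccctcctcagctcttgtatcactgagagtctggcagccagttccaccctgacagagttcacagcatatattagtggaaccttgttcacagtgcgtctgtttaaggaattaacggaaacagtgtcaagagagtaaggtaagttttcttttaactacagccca
Fmod, chr13:48045317-48045616, plus strand: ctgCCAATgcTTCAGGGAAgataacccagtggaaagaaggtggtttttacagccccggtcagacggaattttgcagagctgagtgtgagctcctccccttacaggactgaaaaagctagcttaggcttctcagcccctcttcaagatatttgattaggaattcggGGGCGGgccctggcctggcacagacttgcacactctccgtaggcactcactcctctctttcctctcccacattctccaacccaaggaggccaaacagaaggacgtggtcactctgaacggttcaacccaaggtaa
Podn, chr5:128025008-128025307, minus strand: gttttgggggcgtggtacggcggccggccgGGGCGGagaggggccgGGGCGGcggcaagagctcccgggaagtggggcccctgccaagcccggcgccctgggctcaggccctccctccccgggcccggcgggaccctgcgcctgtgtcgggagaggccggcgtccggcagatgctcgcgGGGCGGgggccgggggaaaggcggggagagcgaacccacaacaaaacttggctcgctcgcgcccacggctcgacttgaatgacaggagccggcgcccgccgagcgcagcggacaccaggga
The Lum promoter held a CCAAT box at position -130 from the gene start, read on the opposite strand, and no other match. Fmod held a CCAAT box at -247, a STAT motif at -240 and a GC box at -85, and Podn held 3 GC boxes, at -220, -204 and -71. A match describes the letters and is not evidence of a bound site. Of 27457 promoters of the same length, 37.7% held a CCAAT box, 34.9% a GC box, and 8.68% a STAT motif. The motifs of AP-1 (TGANTCA), C/EBP (TTGCNNAA), the interferon-stimulated response element and NF-κB, searched on either strand, were in none of the 6 SLRP promoters and in 7.33%, 10.5%, 3.77% and 7.60% of all promoters. A TATA box (TATAAA, on the strand of the gene), found in 9.08% of all promoters, was seen in Ogn only among the 6. The GC content was 50.7% in Lum, 52.7% in Fmod and 76.3% in Podn, against a median of 52.3% over all promoters.

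To describe the SLRP genes with the largest difference, decorin was examined first. Dcn, whose product coats collagen fibrils and binds TGF-β, was at 48.4, 45.3 and 47.4 CPM in Vector replicates 1, 2 and 3. In the libraries labelled FTO it was at 5523, 5861 and 5447 CPM. The lowest of these libraries lay far above the highest Vector library, and within each group the values differed little, with an SD of 3.33% of the mean in Vector and 3.93% in the libraries labelled FTO. The fold change was 119 with a 95% interval of 110 to 129, or 6.90 in log2 units (SE 0.0546). Between 661 and 684 reads were counted for Dcn in each Vector library, so the gene was well above the counting floor of 3 reads there. In RNA from whole cultures, fewer cells of a type and less RNA per cell cannot be told apart.

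**Figure D1:**
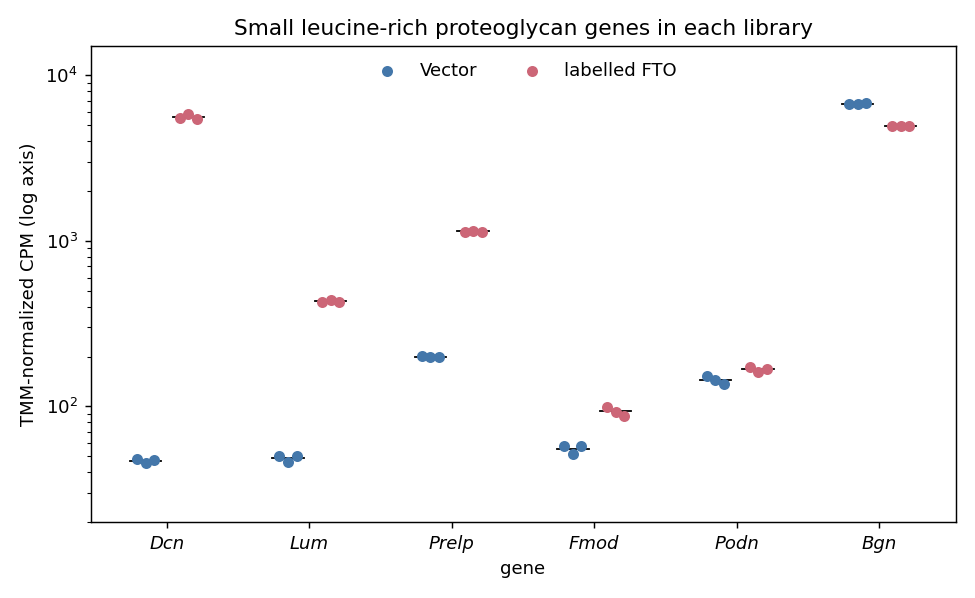
TMM-normalized CPM (log axis) of the 6 SLRP genes that passed the filter, with 1 point per library in Vector (blue) and in the libraries labelled FTO (red), and a line at the mean of each group. Dcn lies at 47.0 CPM on average in Vector, against 5611 CPM in libraries labelled FTO, whereas Bgn is the gene with lower values in the libraries labelled FTO.

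Lumican and PRELP were higher in the libraries labelled FTO as well. Lum, which controls fibril diameter and carries keratan sulfate in the cornea, was at 49.97, 46.0 and 50.1 CPM in Vector, against 429, 440 and 427 CPM in libraries labelled FTO. Its fold change was 8.87 (95% interval 8.25 to 9.53), or 3.15 in log2 units (SE 0.0486). Prelp, a protein with a proline- and arginine-rich end that links collagen to basement membranes, was at 202, 198 and 199 CPM in Vector, against 1135, 1148 and 1136 CPM in libraries labelled FTO. The fold change of Prelp was 5.71 (95% interval 5.39 to 6.05), or 2.51 in log2 units (SE 0.0390). In both genes the groups did not overlap, and the libraries of a group lay close together.

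Fibromodulin and podocan differed by much less. Fmod, which binds collagen and guides its cross-linking, was at 57.9, 51.3 and 57.5 CPM in Vector, against 99.6, 92.7 and 87.5 CPM in libraries labelled FTO, a fold change of 1.68 (95% interval 1.53 to 1.84) and a log2 fold change of 0.75 (SE 0.0639). Podn, a podocan gene linked to the growth of smooth muscle cells, was at 153, 145 and 137 CPM in Vector, against 173, 162 and 168 CPM in libraries labelled FTO. Its fold change was 1.15 (95% interval 1.07 to 1.24), and the gap between the highest Vector library, at 153 CPM, and the lowest library labelled FTO, at 162 CPM, was narrow. Podn was the member whose groups lay closest in fold change, with a log2 value of 0.21 (SE 0.0492).

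Biglycan was the single member with lower values in the libraries labelled FTO. Bgn, the close relative of decorin that can also signal through the Toll-like receptors Tlr2 and Tlr4, was at 6723, 6691 and 6763 CPM in Vector, against 4951, 4911 and 4947 CPM in libraries labelled FTO. The groups did not overlap, and the SD within a group was 0.535% and 0.442% of the mean, the smallest spread among the 6 genes. The log2 fold change was -0.45 (SE 0.0351), so Bgn was 1.36-fold lower (95% interval 1.29 to 1.44). Decorin and biglycan, both SLRPs of class I, thus had opposite directions.

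Osteoglycin, asporin and osteomodulin, whose genes lie side by side on chromosome 17, were at or near 0 in all libraries. Ogn had 1 count in Vector replicate 1, 1 in Vector replicate 3 and 0 in the other libraries. Aspn and Omd had 0 counts in each of the 6 libraries, which allows a level of up to 0.168 to 0.227 CPM depending on the library, for counting error only. These 3 genes were not tested, no difference between the groups was detectable at this depth, and no fold change is given. Osteomodulin is best known from bone, whereas Ogn and Aspn are also found in soft connective tissue.

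The make-up of the family was described as the share of each gene in the counts of all 9 SLRP genes within a library, which does not depend on library scaling. These shares also depend on transcript length, which the tables used here do not give, so they are compared for the same gene between libraries and not between genes. Dcn held 0.669%, 0.631% and 0.653% of the SLRP counts in Vector and 44.9%, 46.5% and 44.6% in the libraries labelled FTO. Bgn held 92.9%, 93.2% and 93.2% in Vector and 40.2%, 38.9% and 40.5% in the libraries labelled FTO. A share also falls when another member rises, and the CPM of Bgn itself was only 1.36-fold lower. The share of Prelp was 2.76% ± 0.0255 in Vector and 9.21% ± 0.102 in the libraries labelled FTO (SD, n = 3 each), and that of Lum was 0.674% ± 0.0292 and 3.49% ± 0.00832. Podn took a smaller share in the libraries labelled FTO, 1.35% ± 0.0642 against 2.01% ± 0.111, although its CPM was higher there. The 9 genes together stood at 7234, 7177 and 7254 CPM in Vector, against 12310, 12614 and 12212 CPM in libraries labelled FTO. They held 0.720% ± 0.00284 of all counts in Vector and 1.24% ± 0.0234 in the libraries labelled FTO.

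**Figure D2:**
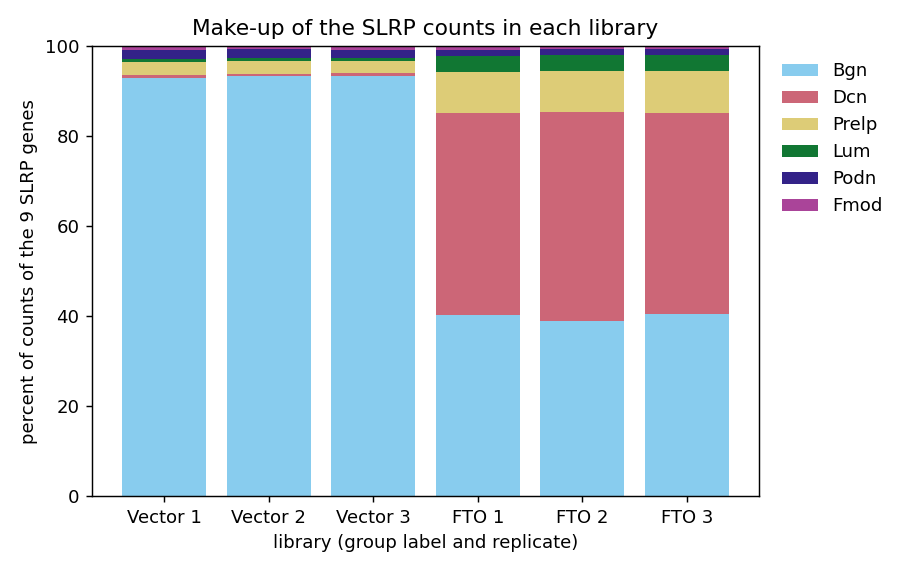
Stacked bars of the percent of the counts of all 9 SLRP genes taken by each gene in each of the 6 libraries, with Ogn, Aspn and Omd too low to be seen. Bgn fills 93.1% of the bar on average in Vector and 39.9% in the libraries labelled FTO, where Dcn fills 45.3%.

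Within a library, the ratio of Bgn to Dcn reads was 139, 148 and 143 in Vector and 0.897, 0.838 and 0.908 in the libraries labelled FTO. The ratio of Dcn to Lum reads, 2 genes that lie next to each other on chromosome 7, was 0.966 ± 0.0204 in Vector and 12.99 ± 0.302 in the libraries labelled FTO (SD, n = 3 each). Prelp and Fmod, neighbours on chromosome 13, had a ratio of 3.60 ± 0.216 in Vector and 12.3 ± 0.801 in the libraries labelled FTO. Neighbouring SLRP genes thus differed unequally, Dcn more than Lum and Prelp more than Fmod.

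Of the 6 members tested, all 6 passed the adjusted threshold of 0.05 by edgeR, 5 with higher and 1 with lower values in the libraries labelled FTO. Of all 12941 genes tested, 65.9% passed that threshold, 33.2% with higher and 32.8% with lower values. The threshold of the study, a log2 fold change of at least 1 in either direction with an unadjusted p-value under 0.05, was met by 3 members (Dcn, Lum and Prelp) and by 19.6% of all genes, 10.4% with higher and 9.27% with lower values. Groups without overlap in CPM were seen in the 6 members and in 70.3% of all genes, 35.5% with higher and 34.8% with lower values. These counts are given beside the members as background only, since the members were proposed with this comparison known.

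The other genes of the family, 9 on the list, were then examined, of which 4 passed the filter. Nyx, which encodes the retinal SLRP nyctalopin, rose from 0.909 ± 0.102 to 3.64 ± 0.209 CPM (log2 difference 1.998, SE 0.233, edgeR adjusted p = 2.2e-06). Optc, which encodes opticin of the eye, rose from 2.93 ± 0.892 to 10.5 ± 0.775 CPM (log2 difference 1.83, SE 0.177, edgeR adjusted p = 2.5e-07). Optc lies directly next to Prelp, and as the use of strand in the counting is not given in the sources used here, reads at the border of such neighbours cannot be assigned with certainty. Epyc, which encodes epiphycan of cartilage, fell from 7.97 ± 0.537 to 0.668 ± 0.337 CPM (log2 difference -3.53, SE 0.249, edgeR adjusted p = 6.0e-09). Epyc fell beside the chondrocyte markers given above, and their part in its change was not tested. Tsku, which encodes tsukushi, was at 100.4 ± 4.29 and 92.9 ± 6.07 CPM with overlapping groups (log2 difference -0.11, SE 0.0567, edgeR adjusted p = 0.0944), and it passed at 0.0236 without FTO replicate 1. The remaining 5 genes were not tested. Ecm2 had 6 to 13 counts per library, Chad 2 to 12, Podnl1 1 to 8 and Chadl 0 to 5, and Kera had 0 counts in all 6 libraries.

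**Figure D3:**
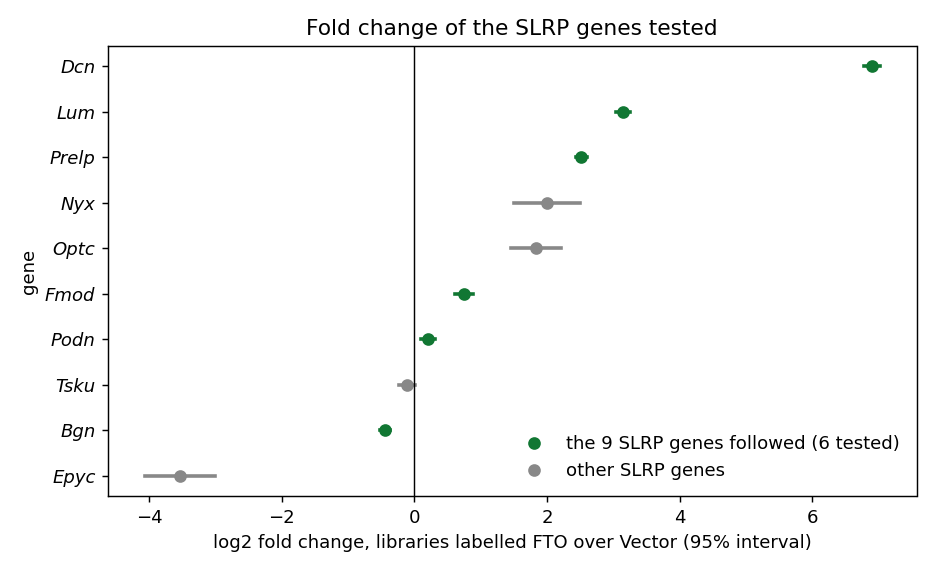
Log2 fold change (libraries labelled FTO relative to Vector) with its 95% interval, for the 6 SLRP genes followed here (green) and 4 other SLRP genes (grey) that passed the filter. The values run from -3.53 for Epyc to 6.90 for Dcn, and the interval of Tsku spans 0.

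The position of the members on the chromosomes (order of genes as in GRCr8) was compared with their levels. On chromosome 7 the order is Btg1, Dcn, Lum and Kera, with 937566 bases between Btg1 and Dcn. Btg1, an antiproliferative gene, was higher in the libraries labelled FTO too, at 251 ± 20.7 against 99.6 ± 3.30 CPM (log2 difference 1.33, SE 0.0578, edgeR adjusted p = 1.6e-11), while Kera next to Lum had no count. On chromosome 13 the order is Optc, Prelp, Fmod and Btg2. Btg2 was at 17.5 ± 0.208 and 30.9 ± 1.77 CPM (log2 difference 0.82, SE 0.0777, edgeR adjusted p = 2.1e-07), so the 4 genes in this stretch all had higher values in the libraries labelled FTO. For Optc, 145 bases from Prelp, this holds only within the limit on strand given above. Of all genes tested, 33.2% passed with higher values, and Prelp and Fmod were picked with the comparison known. Prelp and Fmod lie 102019 bases apart, and Fmod and Btg2 27746 bases. Shared control of these neighbours was not tested. Beside Bgn on chromosome X, Haus7 was at 68.3 ± 5.53 and 71.9 ± 3.86 CPM (edgeR adjusted p = 0.329), and Atp2b3 had too few counts to be tested. Slc1a7 beside Podn on chromosome 5 fell from 1.84 ± 0.166 to 0.626 ± 0.367 CPM (log2 difference -1.47, SE 0.360, edgeR adjusted p = 0.00217). Slc1a7 lies so close to Podn that the limit on strand given for Optc holds for it too. Ogn overlaps Cenpp. Scp2 beside Podn, and Cenpp and Rpl6-ps6 at the ends of the Ogn, Omd and Aspn stretch, were not analysed here.

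The enzymes that build the sugar chains of SLRPs were examined next. Of 26 genes tested for chondroitin and dermatan sulfate synthesis, 7 were higher, 10 lower and 9 did not pass the adjusted threshold, and the median log2 fold change was -0.08, against 0.00 over all genes tested. Ugdh, which makes the UDP-glucuronate used in these chains, rose from 177 ± 3.80 to 645 ± 17.2 CPM (log2 fold change 1.86, adjusted p = 4.8e-15, edgeR). The sulfotransferase genes moved in both directions. Chst15 rose from 10.6 ± 1.14 to 21.1 ± 2.13 CPM (0.998 on the log2 scale, adjusted p = 1.0e-06, edgeR) and Chst11 from 18.7 ± 1.96 to 36.2 ± 4.78 CPM (0.96 on the log2 scale, adjusted p = 8.7e-07, edgeR). Chst3 fell from 38.9 ± 3.09 to 10.1 ± 2.08 CPM (-1.92, adjusted p = 8.9e-10, edgeR) and Ust, which sulfates uronic acid, from 16.4 ± 0.364 to 4.83 ± 0.783 CPM (-1.74, adjusted p = 7.7e-09, edgeR). Chsy1, a chain polymerase, fell from 137 ± 3.92 to 80.1 ± 3.93 CPM (-0.78, adjusted p = 2.4e-09, edgeR). The xylosyltransferases Xylt1 and Xylt2, which start each chain on the core protein, were among the genes that did not pass, with log2 values of -0.10 and -0.08. Dse, an epimerase that turns chondroitin into dermatan sulfate, did not pass either, at -0.02. Its relative Dsel passed with lower values, at -0.17 (adjusted p = 0.0450, edgeR). Xylt1, Xylt2, Dse and Dsel were picked with their values in view.

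Of 10 genes tested for keratan sulfate and tyrosine sulfate synthesis, steps that concern lumican, fibromodulin and other class II members, 3 were higher, 5 lower and 2 did not pass, with a median log2 fold change of -0.25. B4galt1 rose from 80.3 ± 0.588 to 129 ± 8.32 CPM, Chst2 from 29.7 ± 0.776 to 46.2 ± 3.34 CPM and St3gal3 from 14.2 ± 0.871 to 18.6 ± 1.33 CPM. By edgeR, the adjusted p-values were 1.9e-08, 1.0e-06 and 0.00242. Chst1, the keratan sulfate sulfotransferase, fell from 13.9 ± 2.15 to 5.05 ± 0.801 CPM, Tpst2, a tyrosine sulfotransferase, from 43.1 ± 4.58 to 22.9 ± 0.904 CPM, and B3gnt2, which extends the chain, from 49.4 ± 3.73 to 38.2 ± 3.10 CPM. By edgeR, the adjusted p-values were 4.6e-07, 1.2e-07 and 5.2e-04. The genes for chain synthesis thus had no common direction with Dcn, Lum and Prelp.

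Proteases that can cut SLRPs were tested in the same way. Of 15 genes, 10 were higher and 5 lower, and the median log2 fold change was 0.68. Mmp3 (stromelysin) had 0 counts in each Vector library and 20.2, 35.2 and 15.6 CPM in the libraries labelled FTO, at least 108-fold higher against a floor of 3 counts per library (adjusted p = 2.8e-08, edgeR). Mmp9, a gelatinase, was at 1.02, 0.671 and 1.11 CPM in Vector, against 46.2, 68.0 and 41.4 CPM in libraries labelled FTO (log2 difference 5.78, SE 0.250, edgeR adjusted p = 1.5e-11). Adamts4, an aggrecanase, rose from 9.39 ± 0.465 to 27.0 ± 1.16 CPM (adjusted p = 6.7e-10, edgeR). Ctss, a lysosomal protease abundant in macrophages, fell from 95.7 ± 3.995 to 22.6 ± 1.26 CPM and Mmp12, the macrophage elastase, from 168 ± 4.15 to 61.4 ± 9.03 CPM, beside the macrophage markers given above, whose part was not tested. Tll1, a relative of Bmp1, fell from 24.6 ± 1.07 to 7.82 ± 0.504 CPM. By edgeR, the adjusted p-values of Ctss, Mmp12 and Tll1 were 2.1e-13, 2.3e-10 and 5.7e-10. Bmp1 itself, which removes the propeptide of biglycan, was higher by 0.40 on the log2 scale (adjusted p = 1.6e-06, edgeR) and was picked with its value in view.

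Of 21 receptors and growth factors known to bind SLRPs, 8 were higher, 11 lower and 2 did not pass, with a median log2 fold change of -0.33. Receptor genes were found in both directions. Of the growth factor genes tested, Tgfb1, Tgfb2, Tgfb3, Bmp4, Wisp1 and Ctgf were lower, and only Vegfa was higher. The genes given with their levels below are those with the largest rises and falls under the naming rule. Tlr2, a receptor for soluble biglycan, rose from 35.2 ± 1.30 to 173 ± 16.1 CPM (2.29 on the log2 scale, adjusted p = 1.8e-13, edgeR). The decorin-binding receptor genes Egfr and Met rose from 21.9 ± 2.27 to 63.6 ± 10.6 CPM and from 4.57 ± 1.03 to 11.9 ± 1.14 CPM, with edgeR adjusted p = 6.0e-09 and 1.4e-06. Among receptors with smaller differences, Cd14, a co-receptor of Tlr2 and Tlr4, fell by 0.74 on the log2 scale (adjusted p = 8.2e-09, edgeR), and the growth factor gene Vegfa rose by 0.15 (adjusted p = 0.0107, edgeR), both picked with their values in view. Tgfb3 was at 934, 916 and 914 CPM in Vector, against 35.9, 34.5 and 36.3 CPM in libraries labelled FTO (log2 difference -4.69, SE 0.0469, edgeR adjusted p = 9.4e-19). Ctgf, which encodes a matricellular growth factor, fell from 3666 ± 58.8 to 319 ± 28.3 CPM (-3.52, adjusted p = 1.2e-16, edgeR), and Bmp4 from 41.4 ± 0.773 to 10.8 ± 0.946 CPM (-1.93, adjusted p = 1.3e-11, edgeR).

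The collagens and other fibril proteins that SLRPs bind were lower in most cases. Of 15 genes tested, 13 were lower, 1 higher and 1 did not pass, and the median log2 fold change was -1.51. Col6a3, a chain of the type VI collagen that binds decorin and biglycan, fell from 1420 ± 37.3 to 97.0 ± 17.8 CPM (-3.86 on the log2 scale, adjusted p = 9.8e-15, edgeR). The type VI chain genes Col6a1 and Col6a2 fell by much less, by -0.74 and -0.46 on the log2 scale. Col6a1 went from 2117 ± 12.4 to 1270 ± 76.5 CPM and Col6a2 from 1982 ± 14.5 to 1444 ± 58.0 CPM. Both were picked with their values in view. Col11a1, which sits in the core of fibrils, fell from 679 ± 15.4 to 47.9 ± 7.15 CPM (-3.82, adjusted p = 1.4e-15, edgeR), and Eln, the elastin gene, from 2313 ± 63.9 to 390 ± 31.6 CPM (-2.57, adjusted p = 2.3e-15, edgeR). Tnxb, the gene of tenascin-X, which bridges decorin and collagen, was the 1 that rose, from 9.40 ± 0.783 to 19.9 ± 3.88 CPM (1.09, adjusted p = 4.1e-06, edgeR). The fibril-binding SLRP genes Dcn, Lum, Prelp and Fmod thus differed in the direction opposite to most of the fibril genes, whereas Bgn was lower together with them.

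**Figure D4:**
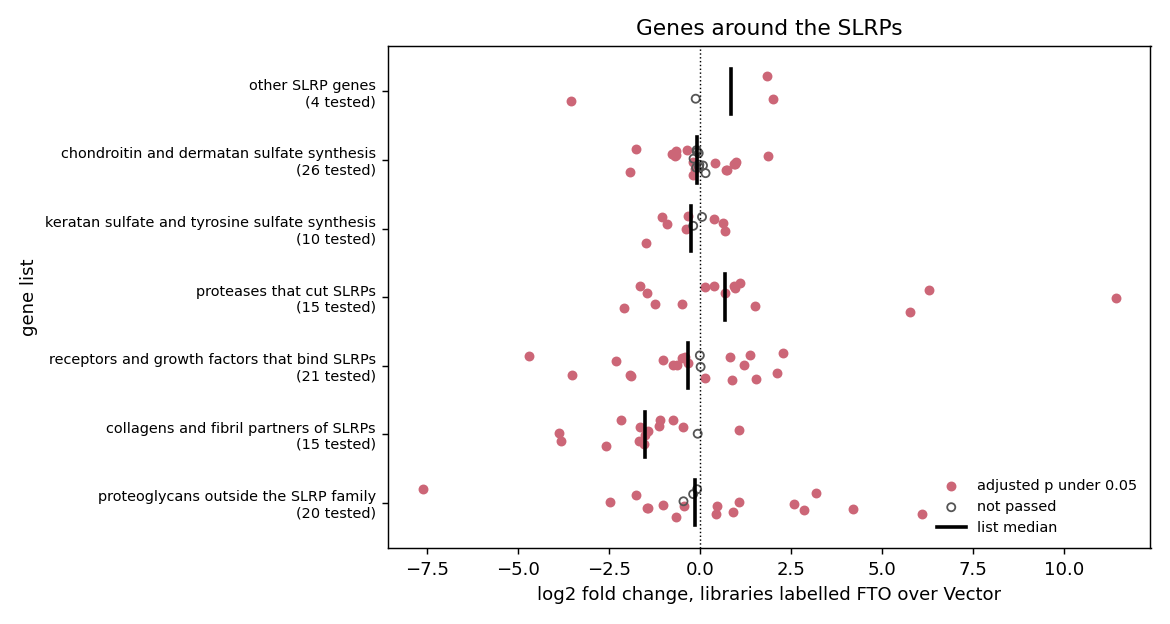
Log2 fold change (libraries labelled FTO relative to Vector) for the tested genes of 7 lists around the SLRPs, each point a gene (filled where the adjusted p-value was under 0.05, open where not) and each bar the median of its list, with random vertical spread. The collagens and fibril partners lie mostly below 0 with a median of -1.51, and the proteases have a median of 0.68.

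Lastly, the genes whose profile over the 6 libraries was most like that of Dcn were listed, by the root mean square distance between log2 CPM centred on the mean of each gene, among 10041 other genes with a mean of at least 100 counts. The 5 nearest were Mt1 (distance 0.126), Klrk1 (0.128), Oas2 (0.226), Mt1m (0.228) and Isg15 (0.252). The metallothionein gene Mt1 was at 4.38 ± 0.455 CPM in Vector and 577 ± 41.5 CPM in the libraries labelled FTO, and Mt1m at 20.7 ± 0.378 and 1805 ± 66.4 CPM. Metallothionein genes are near-identical, so the split of reads between them is uncertain. The interferon-stimulated genes Oas2 and Isg15 were at 0.303 ± 0.107 and 1.69 ± 0.452 CPM in Vector and at 47.0 ± 4.27 and 186 ± 17.0 CPM in the libraries labelled FTO. Klrk1, a lymphocyte receptor gene, had 0 counts in each Vector library and 19.1, 15.3 and 17.0 CPM in the libraries labelled FTO, at least 78.0-fold higher against the floor. The distance of a gene at 0 in Vector, such as Klrk1, depends on the prior count of 2 used for log2 CPM. With 2 groups of 3 libraries, this likeness rests almost wholly on the difference between the groups.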

How the data were processed

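RNA was extracted with TRIzol and libraries were made with a NEBNext kit, per the labels. The submitters' processing notes name Trimmomatic and the build rn6. Aligner, counting program, annotation and strand setting are not given in the sources used here. The deposited values are unnormalized counts per gene symbol, 1 file per library. Outside replicate 1 of each group, the library code in the column header differs from the code in the name of the file, whereas the group and replicate parts of both match the title. The genotype label set the group and the title the replicate number.

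Genes were kept with filterByExpr (minimum count 10), which left 12941, and normalized by TMM (trimmed mean of M-values, factors 0.995 to 1.005). The groups were compared with the two-sided quasi-likelihood test of edgeR 4.0.16 in R 4.3.3, without covariates, and p-values were adjusted over all genes tested by Benjamini-Hochberg. Values are TMM-normalized CPM, mean ± SD of 3 libraries. The SE was derived from the same fit, as the absolute log2 fold change over the square root of the F statistic of the test. The 95% intervals were built from this SE. Both cover counting error and replicate spread only, as no source used here mentions molecular identifiers. The procedure was tested on simulated data, in which far fewer genes changed than here and each by less than Dcn. That test therefore does not show how the procedure performs under changes as wide or as large as in these libraries. Alternatives were DESeq2 1.42.0, its size factors, library size alone, no filter, the replicate number as a block, and leaving out each library.

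The members and lists were chosen with earlier results of these data known. From each list, the 3 largest rises and 3 largest falls were named where adjusted p was under 0.05, the groups did not overlap in CPM and the mean was at least 100 counts, and also the other SLRP genes, chromosomal neighbours (among protein-coding genes), Fto and the 5 genes most like Dcn. Pairs of replicates differed beyond sampling noise (chi-square over its degrees of freedom, 1.58 to 8.38). Promoters came from RefSeq (GRCr8, another build than rn6).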

Additional observations from a re-analysis of the deposited data

How the results depend on the processing

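The 6 SLRP genes tested passed the adjusted threshold under each of the 11 alternatives, which all reuse the same libraries. This is a description only, as the members were picked with the comparison known. In the edgeR fit used above, 65.9% of all 12941 genes tested passed as well. The log2 fold change of Dcn ranged from 6.87 to 6.92, of Lum from 3.11 to 3.17, of Prelp from 2.50 to 2.52, of Fmod from 0.69 to 0.79, of Podn from 0.16 to 0.24 and of Bgn from -0.45 to -0.44. Over all genes, 7795 (DESeq2) to 9009 (no filter) passed, and the counts of the 7 lists stayed within 1.5 times. Fto was not called under any alternative, with values from 0.05 to 0.08. Of 44 single genes followed, only Tsku changed its call, as given above. The genes most like Dcn depended on the measure: by Pearson correlation, 1 of the 5 was the same (Mt1m), and Prelp was among the 5. By that measure, however, 928 of the 10041 genes compared had a correlation of at least 0.99 with Dcn. The replicate numbers did not pair the libraries (correlation of deviations 0.00284, -0.0693 and 0.0207 for equal numbers), and with the replicate block 8399 genes passed. Levels per transcript length were not run, as no transcript lengths were at hand. Depth limits Ogn, Aspn and Omd, and the fold changes of Mmp3 and Klrk1 are lower bounds.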

Other observations

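Proteoglycans outside the SLRP family moved in both directions in the same comparison. Of 20 genes tested, 9 were higher, 8 lower and 3 did not pass the adjusted threshold of the edgeR test, and the median log2 fold change was -0.13. Prg4, the gene of the lubricant lubricin, was at 4.10, 4.23 and 5.40 CPM in Vector, against 271, 341 and 328 CPM in libraries labelled FTO (log2 difference 6.10, SE 0.111, edgeR adjusted p = 4.7e-16). Sdc4, a syndecan of focal adhesions, rose from 144 ± 0.545 to 1308 ± 30.7 CPM (adjusted p = 9.5e-18, edgeR), and Tgfbr3, the TGF-β co-receptor betaglycan, from 42.3 ± 3.32 to 309 ± 33.5 CPM (adjusted p = 4.4e-14, edgeR).

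The large aggregating proteoglycan gene Acan was lower, going from 82.8 ± 1.89 to 0.428 ± 0.0970 CPM (log2 difference -7.60, SE 0.121, edgeR adjusted p = 9.1e-17). Vcan, a more abundant gene of the same kind, was instead higher, at 1983 ± 38.5 against 936 ± 17.8 CPM in Vector (log2 difference 1.08, SE 0.0378, edgeR adjusted p = 1.0e-12). It was picked with its value in view. The glypican genes Gpc6 and Gpc4, which encode heparan sulfate proteoglycans anchored to the membrane, fell from 83.5 ± 5.18 to 15.2 ± 0.727 CPM and from 531 ± 9.0003 to 157 ± 7.49 CPM, with edgeR adjusted p = 1.1e-13 and 2.3e-14. Acan is on the chondrocyte marker list and fell with Epyc, while the cartilage gene Comp of that list was the 1 that rose, from 1.02 to 3.90 CPM.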
